A study of Bos taurus with 96 samples.

Results

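The 8 enzymes described here carry a fatty acid from acetyl-CoA to its long-chain, desaturated form: ACSS2 and ACLY, which make cytosolic acetyl-CoA from acetate and from citrate, ACACA, which carboxylates it to malonyl-CoA, FASN, which joins the units into palmitate, ELOVL6, which lengthens palmitate to stearate, SCD, which desaturates stearate to oleate, and ME1 and PGD, which supply NADPH. They were picked by their role in the pathway from 10653 genes that could be named on the array. Earlier results of these data were known when they were picked. They are read by 31 of the 34227 probes tested. Each gene is described by its brightest probe over all 96 arrays, and counts of calls over the 8 enzymes are by that probe.

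In ruminants most fatty acid synthesis takes place in adipose tissue, and acetate from rumen fermentation is the main carbon source, so that ACSS2 stands where ACLY stands in animals that build fat from glucose. Malonyl-CoA made by ACACA is used for synthesis, whereas malonyl-CoA made by the related ACACB at the mitochondrion limits fatty acid oxidation in muscle. The reducing power comes from the pentose phosphate pathway, to which PGD belongs, from the malic enzyme ME1 and from the cytosolic isocitrate dehydrogenase IDH1.

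Total RNA was hybridised to bovine arrays, 4 to a slide. The fat came from steers grown on pasture after weaning (Pasture_Feeding), of the breeds Angus and Hereford and the cross Wagyu x Angus: 12 samples each of intramuscular (IMF), rump subcutaneous (SC), intermuscular (Inter), kidney (Kid) and omental (Omen) fat, 4 per breed in every depot. The 36 longissimus dorsi (LD) samples are muscle with its fat in situ, 24 from pasture steers (8 per breed) and 12 from steers given a supplement after weaning (Supplemental_Feeding, 4 per breed). All are described as steers of 26 months that spent 259 days in the feedlot, although the study's methods place an undefined portion of the LD samples at an earlier kill. The methods also name 15 steers for the fat, so arrays of different depots share animals that the labels do not identify, and the p-values treat them as separate samples.

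Levels are log2 signals with the 75th percentile of each array set to 0, so they compare samples for one probe, not one gene with another. A difference was called where limma's adjusted p was under 0.05. The share of probes well above background ranged from 66.2% to 96.5% over the arrays, and the probes used for the 8 enzymes were well above background on all 60 fat arrays and on all 36 LD arrays, except those of ACACA and ELOVL6, which were on 35. The signal is per amount of total RNA: in such bulk samples fewer adipocytes and less RNA per adipocyte cannot be told apart. IMF was not free of muscle. The mean level of 11 skeletal muscle markers, among them CKM and ACTA1, had a median of 7.40 in IMF and 8.77 in LD. The medians of the other fat depots lay between -4.82 (Omen) and -3.04 (Inter). Among the 12 Inter arrays, that of Wagyu x Angus on slide 5, position 2 reached 5.90.

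**Figure D1:**
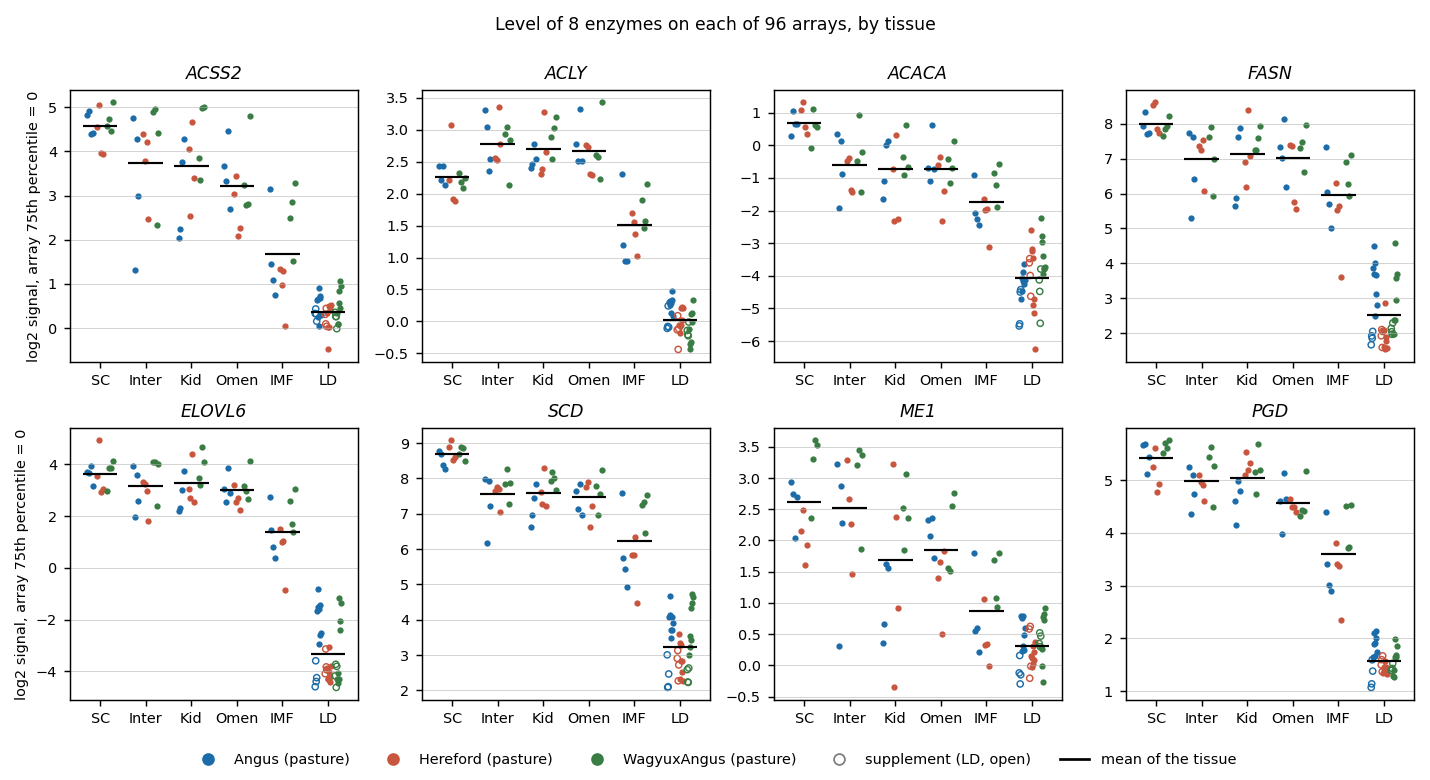
Level of each enzyme (y axis, log2 signal with the 75th percentile of the array at 0) on every array, by tissue (x axis), coloured by breed, with open points for supplemented LD and a bar for the mean. In the mean, SC sits highest for 7 of the 8 enzymes, with Inter nearly level for ME1. IMF is the lowest fat depot in the mean for all 8, and LD lies below IMF.

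All 8 passed the test over the 5 fat depots, close to the 87.2% of all probes that did, with adjusted p from 4.06e-06 (FASN) to 2.72e-13 (PGD). In the mean of the probes used, SC was the highest depot for 7 enzymes and IMF the lowest for all 8. ACLY was the exception: its order was Inter, Kid, Omen, SC and IMF. Without the 12 IMF arrays, 7 of the 8 still differed among SC, Inter, Kid and Omen, where 65.6% of all probes did. ELOVL6 then did not pass (adjusted p = 0.146).

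The step from acetate was highest in SC. ACSS2, the cytosolic acetyl-CoA synthetase, had levels in SC from 3.94 to 5.10 with a median of 4.56. In IMF it ran from 0.06 to 3.28 with a median of 1.39, below every SC array. The medians were 4.25 in Inter, 3.80 in Kid and 3.14 in Omen, and each of these 3 depots had arrays inside the SC range and arrays well below it. ACSS2 was 7.40-fold lower in IMF than in SC (log2 difference -2.89, SE 0.35, adjusted p = 2.7e-10) and 2.57-fold lower in Omen than in SC (-1.36, SE 0.35, adjusted p = 0.00127). Its smaller differences in Inter (-0.84, adjusted p = 0.0438) and Kid (-0.90, adjusted p = 0.0317) also passed, but leaving out the Inter array of Angus on slide 4, position 3 brought the first to -0.63 (adjusted p = 0.122), and leaving out the Kid array of Angus on slide 4, position 1 brought the second to -0.76 (adjusted p = 0.0749). The Inter difference was also lost with slide as a random block (0.0619), and only 1 of the 2 ACSS2 probes called it. With scan day as a block limma gave -1.63 in Inter and -1.31 in Kid (adjusted p = 0.0315 and 0.0115).

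The step from citrate did not follow it. ACLY, ATP citrate lyase, ranged in SC from 1.89 to 3.07 (median 2.21), in Inter from 2.14 to 3.36 (2.81), in Kid from 2.31 to 3.28 (2.60) and in Omen from 2.24 to 3.43 (2.59). These 4 depots overlapped widely. IMF ran from 0.94 to 2.31 (median 1.51), into the SC range and to the low ends of the others. ACLY was lower in IMF than in SC by 0.75 (SE 0.15, adjusted p = 2.18e-05) and higher than in SC in Inter by 0.52 (adjusted p = 0.00367), in Kid by 0.45 (adjusted p = 0.0135) and in Omen by 0.41 (adjusted p = 0.0239). The 3 gains over SC were lost when scan day was fitted as a block (adjusted p = 0.352, 0.142 and 0.449), and that in Omen also with slide as a random block (0.0726). Of the 4 ACLY probes, 2 called the drop in IMF (range -0.90 to 0.11), 2 the gain in Inter and 1 each those in Kid and Omen; a further 2 probes, 1 of them above background on only 64 of the 96 arrays, did not differ between depots by the F test (adjusted p = 0.86 and 0.132).

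For ACACA, the cytosolic acetyl-CoA carboxylase, the SC arrays lay between -0.07 and 1.31 (median 0.63) and the IMF arrays between -3.11 and -0.59 (median -1.92). The other 3 depots fell between these and overlapped both, with medians of -0.47 in Inter, -0.69 in Kid and -0.70 in Omen. ACACA was 5.34-fold lower in IMF than in SC (log2 difference -2.42, SE 0.29, adjusted p = 3.11e-10), and its differences from SC in Inter (-1.28), Kid (-1.42) and Omen (-1.41) had adjusted p of at most 0.000331. All 3 of its probes were called lower in all 4 depots.

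FASN, the multifunctional synthase that makes palmitate, ranged in SC from 7.65 to 8.61 (median 7.89) and in IMF from 3.62 to 7.35 (median 5.98). No IMF array reached the SC range. FASN was 4.17-fold lower in IMF (-2.06, SE 0.32, adjusted p = 1.28e-07). It was lower by 1.03 in Inter (adjusted p = 0.00667) and 0.87 in Kid (adjusted p = 0.0214) and 1.99-fold lower in Omen (adjusted p = 0.00912), where medians were 7.31, 7.25 and 7.33 and most arrays lay just under SC with a tail down to 5.30. The Kid difference missed the threshold without the Kid array of Angus on slide 4, position 1 (-0.74, adjusted p = 0.0538), and that in Omen did with scan day as a block (-1.21, adjusted p = 0.0913). All 4 FASN probes were called lower in IMF, Kid and Omen and 3 in Inter.

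SCD, the stearoyl-CoA desaturase, was the tightest in SC, from 8.28 to 9.07 (median 8.69), while its medians were 6.08 in IMF and 7.60 (Omen) to 7.73 (Inter) in the other depots. Neither the IMF nor the Omen arrays overlapped SC. SCD was 5.47-fold lower in IMF (-2.45, SE 0.23, adjusted p = 9.88e-14), the smallest value of its 7 probes, which ran down to -4.09 with a median of -3.34. It was lower by 1.12, 1.09 and 1.21 in Inter, Kid and Omen (adjusted p at most 0.000107). All 7 SCD probes were called in the depot F test. ELOVL6, the elongase acting after FASN, had a median of 3.68 in SC and of 1.44 in IMF, with Inter at 3.29, Kid at 3.12 and Omen at 2.95. It was 4.72-fold lower in IMF than in SC (-2.24, SE 0.29, adjusted p = 2.59e-09), while its differences from SC in the other depots did not pass: -0.48 in Inter (95% interval -1.06 to 0.11), -0.36 in Kid (-0.95 to 0.23) and -0.65 in Omen (-1.23 to -0.06, adjusted p = 0.0706). Of the 4 ELOVL6 probes, 4 were called lower in IMF, 1 in Kid (-0.65) and none in Inter or Omen.

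Of the NADPH enzymes, PGD, phosphogluconate dehydrogenase, ranged from 4.77 to 5.75 in SC (median 5.56) and from 2.35 to 4.52 in IMF (median 3.56), with no overlap. It was 3.55-fold lower in IMF (-1.83, SE 0.17, adjusted p = 5.87e-14). PGD was also lower than in SC by 0.86 in Omen (adjusted p = 3.77e-05) and 0.44 in Inter (adjusted p = 0.031), but not past the threshold in Kid (-0.38, adjusted p = 0.0593). Of the 5 PGD probes, 5 were called lower in IMF and Omen, 3 in Inter and 1 in Kid. The Inter call was lost without the Wagyu x Angus array of high muscle markers on slide 5, position 2 (-0.37, adjusted p = 0.0726), and with slide or scan day as a block (0.0552 and 0.0719). The Kid difference of PGD passed in limma with scan day as a block (-0.52, adjusted p = 0.0435), but not with slide (0.0774). ME1, cytosolic malic enzyme, varied within depots, from 1.60 to 3.60 in SC (median 2.59), from 0.31 to 3.46 in Inter (2.77), from -0.35 to 3.23 in Kid (1.74) and from 0.50 to 2.76 in Omen (1.77), against -0.01 to 1.80 in IMF (0.76). ME1 was 3.36-fold lower in IMF than in SC (-1.75, SE 0.29, adjusted p = 7.62e-07). It was lower than in SC by 0.93 in Kid (adjusted p = 0.00761) and 0.76 in Omen (adjusted p = 0.0311), and in Inter the difference was -0.09 (95% interval -0.67 to 0.50). With scan day as a block the ME1 difference in Inter was -0.97 in limma and was not called (adjusted p = 0.124). The other ME1 probe gave smaller or opposite differences from SC: -0.93 in IMF (called), 0.49 in Inter, -0.32 in Kid and -0.25 in Omen (none of these 3 called), so that Inter and not SC was its highest depot. The Omen call was lost without the Hereford Omen array on slide 11, position 2 (-0.67, adjusted p = 0.0649) and with slide or scan day as a block (0.0733 and 0.0559).

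Counted by pair of depots, 8 of 8 enzymes were lower in IMF than in SC, where 62.9% of all probes were called and 32.1% were called lower. The median difference of the 8 was -2.15, against -0.0032 over all probes. In Inter, 5 were lower and 1 higher than SC (44.4% of probes called, 24.7% lower and 19.8% higher), in Kid 5 lower and 1 higher (43% called, 22.8% lower and 20.2% higher), and in Omen 6 lower and 1 higher (41.9% called, 22.9% lower and 18.9% higher). With quantile normalisation the differences of ACSS2 in Inter and Kid (adjusted p = 0.131 and 0.066), FASN in Inter, Kid and Omen (0.107, 0.162 and 0.081), SCD and PGD in Inter (0.0714 and 0.383) and ME1 in Omen (0.0813) no longer passed. The 8 were all higher in Inter, Kid and Omen than in IMF, where 63.2%, 60.4% and 57.4% of probes were called and 30.1%, 29.7% and 28.9% called higher. With scan day as a block FASN no longer passed in Inter (adjusted p = 0.213) and Kid (0.0517) against IMF, nor did ME1 (0.0594 and 0.202). Among Inter, Kid and Omen, ME1 was lower in Kid than in Inter by 0.85 (adjusted p = 0.0318; 20.8% called), PGD was lower in Omen than in Kid by 0.48 (adjusted p = 0.0382; 19% called, 10.1% lower and 8.81% higher), and none was called between Omen and Inter by limma (13.2% called, 7.96% higher), where 2 had an unadjusted p under 0.05 (27.9% of probes). These counts lie near the shares of all probes. The PGD call was lost with quantile normalisation (0.0654), and both calls were lost with slide (0.135 and 0.0911) or scan day (0.411 and 0.0904) as a block. The pairs share arrays and are not independent of each other.

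**Figure D2:**
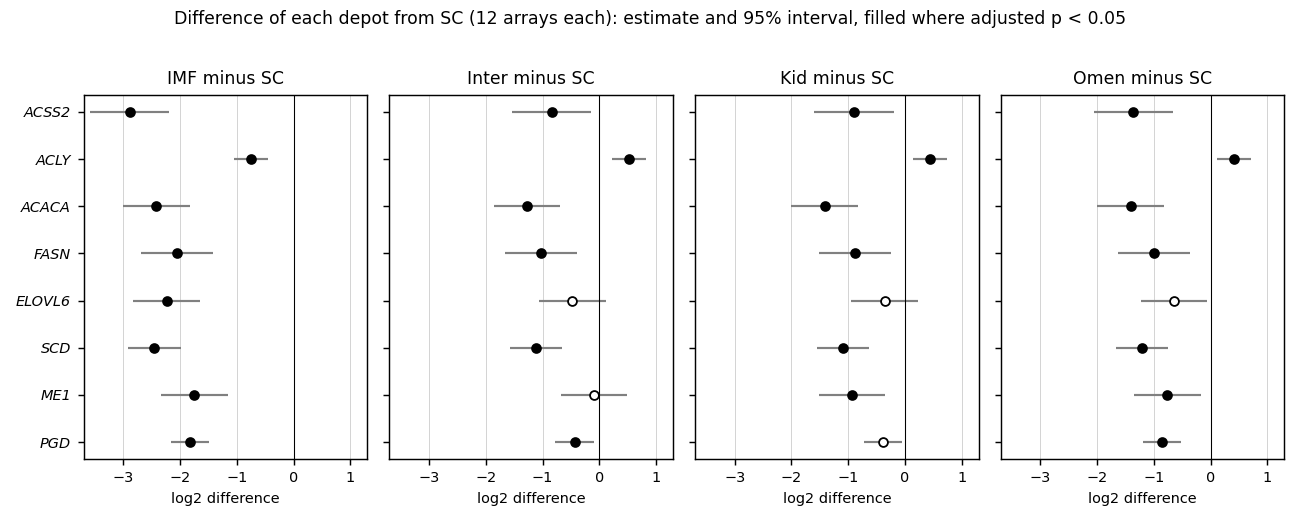
Difference of Inter, Kid, Omen and IMF from SC for each enzyme (x axis, log2 difference; point, limma estimate; line, 95% interval; 12 arrays per depot), filled where the adjusted p is under 0.05. By the probes drawn, IMF is lower for all 8, from -2.89 for ACSS2 to -0.75 for ACLY, and ACLY alone lies above 0 in Inter, Kid and Omen.

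Scan day went with depot. The 12 IMF arrays were all read on day 3 and the 12 Inter arrays on day 2, while 11 of the 12 SC arrays were read on day 1, so IMF and SC shared a day only through 1 SC array. Within a single day, all 8 enzymes were higher in Omen (10 arrays) than in IMF (12 arrays) on day 3, by 0.93 (ME1) to 1.65 (ELOVL6) with adjusted p of at most 0.0166 (56.1% of probes called). On day 1, Kid (5 arrays) was lower than SC (11 arrays) for ME1, ACSS2, ACACA, FASN and SCD, by 1.07 (SCD) to 1.65 (ACACA), where 30.3% of probes were called. On day 2, limma called none between Kid (6 arrays) and Inter (12 arrays), with adjusted p from 0.422 (ME1) to 0.958 (ACLY) and 8.5% of probes called.

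Within a depot the enzymes moved together from array to array. Over the 60 fat arrays the 28 pairs of enzymes had r from 0.47 to 0.93 with a median of 0.82, and from 0.39 to 0.90 with a median of 0.74 once the depot means were subtracted. After that subtraction ACSS2 with FASN was the closest pair (0.90) and ACLY with ME1 the loosest (0.39). In some depots 1 array stood at the end for most enzymes: the Hereford IMF array on slide 18, position 4 was the lowest in IMF for 7 of the 8 enzymes, the Angus Inter array on slide 4, position 3 the lowest in Inter for 6, and the Wagyu x Angus Omen array on slide 11, position 4 the highest in Omen for 6. In Kid each end was spread over 4 arrays, as were the low ends in SC and Omen. These correlations describe arrays that share total RNA input, slides and steers.

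In IMF the enzymes went with adipocyte markers and against muscle markers. The level of each enzyme, less its own mean over the 60 fat arrays, was averaged over the 8 enzymes. Over the 12 IMF arrays, this average had r of 0.91 (permutation p = 2e-05, adjusted 4e-05) and Spearman rho of 0.91 (permutation p = 7e-05, adjusted 0.00014) with the mean of 7 adipocyte markers such as ADIPOQ and PLIN1. With the 11 muscle markers r was -0.66 (permutation p = 0.0208, adjusted 0.0208) and rho -0.75 (permutation p = 0.00696, adjusted 0.00696). The permutations moved values freely among the 12 arrays, without regard to breed or slide. Without the 2 arrays farthest from the median of each marker score, r was 0.85 and -0.74, and these 2 relations were the only ones computed. The Hereford IMF array with the lowest enzyme levels also had the lowest adipocyte score, 2.63, and a muscle score of 7.92. The adipocyte score itself had a median of 3.93 in IMF, against 4.78 (Omen) to 5.09 (SC) in the other depots. All 6 macrophage markers were called lower in IMF than in SC, where 32.1% of all probes were (median difference -2.07, score medians -0.90 and 1.66). The part of muscle, of macrophages or of adipocyte number in the IMF values was not tested.

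Muscle with its fat in situ had lower mean levels than any fat depot. Against the 24 pasture LD arrays all 8 enzymes were higher in each of the 5 depots, 40 of 40 comparisons, with 83.1% of probes called for SC (40.5% higher), 75.9% for IMF (36.4%), 84.3% for Inter (40.1%), 81.5% for Kid (39.7%) and 82.6% for Omen (40.7%). ELOVL6 had the widest gap, 97.5-fold between SC and LD (log2 difference 6.61, SE 0.31, adjusted p = 2.17e-33) and 20.6-fold between IMF and LD (4.37). Its LD pasture arrays ran from -4.45 to -0.82 (median -2.99). FASN was 37.2-fold and SCD 34.0-fold higher in SC than in LD, ACACA 23.7-fold, ACSS2 17.6-fold, PGD 13.8-fold, ME1 4.73-fold and ACLY 4.55-fold. The other ME1 probe differed by 1.01 on the log2 scale there, and 1 of the 4 ACLY probes, which gave -0.03, was not called. ME1 gave the one marginal call, 1.41-fold in IMF over LD (0.49, SE 0.23, adjusted p = 0.0432), which was lost with slide (0.167) or scan day (0.12) as a block and without the Angus IMF array on slide 8, position 1 (0.40, adjusted p = 0.111), and was not made by the other ME1 probe (0.08, adjusted p = 0.705).

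Over the 5 fat depots only ME1 passed the test between breeds (F = 8.02, adjusted p = 0.0351), where 3.2% of all probes did. ME1 had a median of 2.45 on the 20 Wagyu x Angus arrays (0.94 to 3.60), 1.92 on the Angus arrays (0.21 to 3.23) and 1.63 on the Hereford arrays (-0.35 to 3.30). All 3 breeds overlapped along most of their range. Wagyu x Angus was higher than Hereford by 0.86 (SE 0.23, 1.82-fold, adjusted p = 0.0195; 3.44% of probes called) and than Angus by 0.67 (SE 0.23, adjusted p = 0.165). The other ME1 probe was at 0.53 against Hereford and was not called (adjusted p = 0.113). The F test for ME1 was lost in 11 of the 60 fits that left out 1 array, 10 of them without a Wagyu x Angus array and 1 without the Hereford Omen array on slide 11, position 2. The highest adjusted p, 0.063, came without the Wagyu x Angus Kid array on slide 22, position 1. Within single depots the ME1 means of Wagyu x Angus, Angus and Hereford were 3.20, 2.60 and 2.04 in SC, 1.38, 0.79 and 0.43 in IMF, 2.98, 2.18 and 2.42 in Inter, 2.45, 1.05 and 1.54 in Kid, and 2.10, 2.12 and 1.34 in Omen, with 4 arrays each. Wagyu x Angus had the highest mean in 4 of the 5 depots and lay just below Angus in Omen.

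By the probes used, the other 7 enzymes leaned the same way without passing. Wagyu x Angus was above Hereford for all 8, by 0.13 (ACLY) to 0.86 (ME1) with ELOVL6 next to the threshold (0.73, SE 0.23, adjusted p = 0.0567), and above Angus for all 8, by 0.11 (ACLY) to 0.67 (ME1). For SCD the probe used had the smallest difference of its 7 probes, of which 3 were called higher in Wagyu x Angus than in Angus (median of the 7, 0.85) and 3 than in Hereford (0.79). None of the 8 was called against Angus by limma (0.754% of probes called). At an unadjusted p under 0.05, 5 of the 8 passed against Angus (11.7% of probes), 6 against Hereford (17.6%) and 6 in the F test over breeds (16.6%). Hereford and Angus gave no call (0.567% called) and no unadjusted p under 0.05 among the 8 (9.6% of probes), with the widest 95% interval at -0.71 to 0.38 (ACSS2). The dependence of breed on depot gave no call for any of the 8 or of all probes (0%); the unadjusted p was under 0.05 for none of the 8 and for 7.38% of probes.

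**Figure D3:**
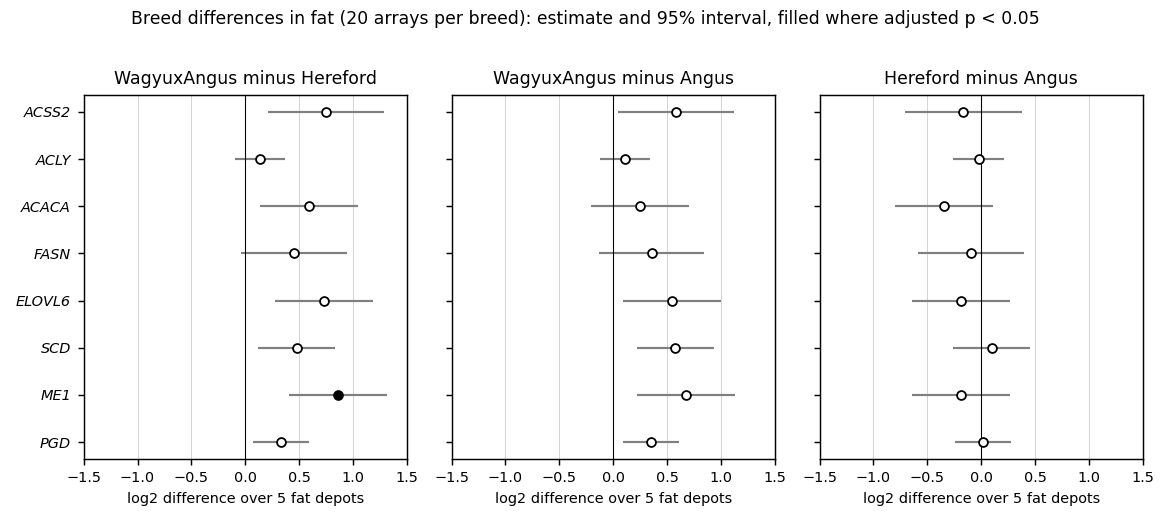
Breed differences over the 5 fat depots for each enzyme (x axis, log2 difference; point, limma estimate; line, 95% interval; 20 arrays per breed), filled where the adjusted p is under 0.05. All 8 estimates lie above 0 for Wagyu x Angus against either other breed, and only ME1 against Hereford, at 0.86, is filled.

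In LD, the supplement after weaning went with lower levels of SCD, FASN and ELOVL6, but the arrays were split by slide. SCD ranged from 2.27 to 4.71 on the 24 pasture arrays (median 3.57) and from 2.08 to 3.13 on the 12 supplement arrays (median 2.53), FASN from 1.53 to 4.57 (2.65) and from 1.59 to 2.29, and ELOVL6 from -4.45 to -0.82 (-2.99) and from -4.62 to -3.14 (-4.02). The supplement arrays were tight and lay in the lower portion of the pasture range or just below it. SCD was 2.09-fold lower (-1.06, SE 0.20, adjusted p = 0.000933), FASN 1.78-fold (-0.83, SE 0.23, adjusted p = 0.0173) and ELOVL6 2.08-fold (-1.05, SE 0.33, adjusted p = 0.0324), where 11.2% of probes were called and 5.6% called lower. The other 5 were also below pasture in the mean, by 0.18 (ACLY) to 0.57 (ACACA), without passing. ACACA ran from -6.25 to -2.24 on pasture and from -5.54 to -3.47 on supplement, and PGD from 1.27 to 2.15 and from 1.07 to 1.67. All 7 SCD probes, 3 of 4 for ELOVL6, 2 of 4 for FASN and 1 of 3 for ACACA were called lower.

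Each of the 9 LD slides held 1 diet. With scan day as a block SCD still passed, while FASN and ELOVL6 did not (adjusted p = 0.154 and 0.307) and ACACA passed (-0.86, adjusted p = 0.0206). ELOVL6 also missed the threshold with normexp (0.119) and the deposited log2 values (0.0651). With slide as a random block 1 of the 34227 probes was called at all (0.00292%), and none of the 3 calls remained (adjusted p = 0.287 for SCD, 0.488 for FASN and 0.503 for ELOVL6), and the arrays of a slide had a consensus correlation of 0.429. FASN and ELOVL6 also missed the threshold without slide 2, and without slide 20 (-0.62 and -0.71, adjusted p = 0.0725 and 0.14), and ELOVL6 in 5 of 36 fits without 1 array, with adjusted p up to 0.0643 without the Angus supplement array on slide 1, position 1. The high pasture values came from 3 slides. FASN ran from 3.68 to 4.51 on slide 2 (Angus), from 2.95 to 4.57 on slide 20 (Wagyu x Angus) and from 2.48 to 3.65 on slide 23 (Angus). On slide 24 (Hereford, pasture) it ran from 1.58 to 2.86, and on slides 13 and 14, which mix Hereford and Wagyu x Angus on pasture, from 1.53 to 2.37. The supplement slides held 1.66 to 2.05 (slide 1, Angus), 1.96 to 2.29 (slide 6, Wagyu x Angus) and 1.59 to 2.10 (slide 12, Hereford), level with the lower pasture slides. SCD, ELOVL6 and PGD were likewise high on slides 2, 20 and 23.

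Adipocyte markers split the slides in the same way. The mean of the 7 markers had a median of 2.06 on slide 2, 1.76 on slide 20 and 1.43 on slide 23, and of at most 0.26 on the other 6 slides. On supplement 3 of the 7 were called lower (5.6% of all probes), ADIPOQ by 1.63 (adjusted p = 0.0102), PLIN1 by 1.58 (0.00914) and CIDEC (0.0148), while AQP7 and GPD1 differed by 0.20 and 0.0017. Of 6 endothelial markers 4 were called higher on supplement (5.65% of all probes), CDH5 by 0.54, KDR by 0.55, CLDN5 by 0.43 and PECAM1 by 0.37, and their part in the diet difference was not tested. At least 6 of these 7 marker calls were lost with slide as a random block, where 1 probe of all was called. How far the amount of fat in the LD samples, or the slide, carries the diet difference was not tested, nor was the part of the kill, which the labels do not give. The ACACA probe used did not follow these slides: it ran highest on slides 13 and 14, from -3.93 to -2.24, and lowest on slide 24, from -6.25 to -4.70. The 3 ACACA probes differed here: Hereford minus Angus was 0.34 for the probe used and -0.71 and -0.93 for the others, and Wagyu x Angus minus Angus was 0.73, -0.33 and -0.73, with the last probe called lower in both (adjusted p = 0.00245 and 0.00826). By the probes used, over the 36 LD arrays FASN with ELOVL6 had r of 0.94 and FASN with SCD 0.85, whereas ACACA with FASN had 0.11 and ACACA with ACLY -0.26.

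**Figure D4:**
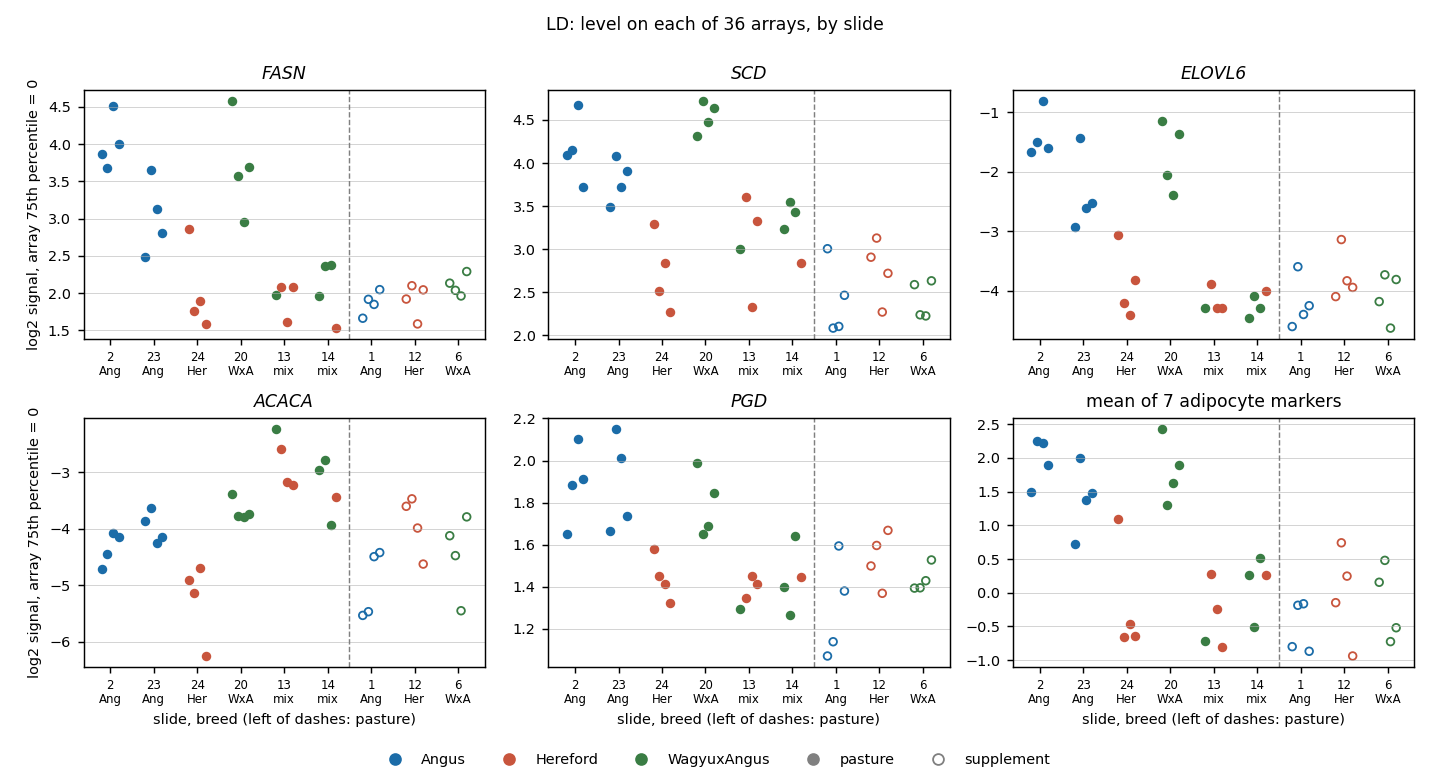
Level of FASN, SCD, ELOVL6, ACACA and PGD and the mean of 7 adipocyte markers (y axis, log2 signal with the array's 75th percentile at 0) on each of the 36 LD arrays, by slide (x axis; pasture left of the dashed line, supplement right). Slides 2, 20 and 23 stand high for FASN, SCD, ELOVL6, PGD and the markers, and the 3 other pasture slides overlap the supplement slides.

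The diet difference varied with breed and with scan day. In Angus, where pasture lay on slides 2 and 23, supplement was lower for ELOVL6 by 2.32 (adjusted p = 0.00754), FASN by 1.65 (0.0167), SCD by 1.56 (0.00504), ME1 by 0.63 (0.0311) and PGD by 0.59 (0.0293) in limma, where 5.22% of probes were called. In Wagyu x Angus only SCD passed (means 3.92 on pasture and 2.42 on supplement, adjusted p = 0.0298; 3.48% of probes called), and in Hereford none did (adjusted p from 0.469 to 0.992; 6.67% called), with differences from -0.18 (ACLY) to 0.26 (ACACA). The test of the dependence on breed passed for ELOVL6 (adjusted p = 0.0277), SCD (0.0179) and PGD (0.0116), where 16.2% of probes did, and for none of them with slide as a random block (0.868, 0.983 and 0.898), where 0 of the 34227 probes were called. On scan day 1, which held 8 supplement and 8 pasture arrays of Hereford and Wagyu x Angus, ACACA alone was called (-1.15, SE 0.28, adjusted p = 0.0164; 11.6% of probes called), SCD was at -0.58 (adjusted p = 0.0586), and the other 6 were at or above 0, up to 0.28 for ELOVL6. On day 2, where the contrast rests on 4 Angus arrays of each diet, ELOVL6 (-2.81), FASN (-2.15), SCD (-1.74), ME1 (-0.63) and PGD (-0.59) were called, with 6.12% of probes.

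Between breeds in LD, ACLY, ELOVL6 and FASN passed the test (25.3% of probes called), and none of them did with slide as a random block (adjusted p = 0.327, 0.369 and 0.249) or scan day as a block (0.498, 0.595 and 0.202), which left 0.0438% and 6.1% of all probes called. Hereford was lower than Angus for ELOVL6 by 1.25 (SE 0.38, adjusted p = 0.0312) and FASN by 1.05 (SE 0.27, adjusted p = 0.0124; 10.2% of probes called, 4.67% lower and 5.49% higher). Of the cell type markers, 4 of 7 for adipocytes were called lower in Hereford than in Angus (median -1.56), and 2 of 6 for endothelium and 7 of 11 for muscle higher (median 0.25 and 0.26). Their part in the breed differences was not tested. Without slide 2 the differences of ELOVL6 and FASN were -0.75 (adjusted p = 0.293) and -0.63 (adjusted p = 0.181). Wagyu x Angus was lower than Angus for ACLY by 0.28 (adjusted p = 0.0145, 19.2% called), where 7 of 11 muscle and 2 of 7 adipocyte markers were called higher (10.2% of probes). The adipocyte score went both ways. On pasture its median was 0.91 in Wagyu x Angus and 1.69 in Angus, and on supplement -0.18 and -0.49. None of the 8 was called between Wagyu x Angus and Hereford by limma (7.08% called, 2.83% higher), where 2 had an unadjusted p under 0.05 (26.3% of probes). Among the other probes of the enzymes, 2 of FASN and 1 of ACLY were called higher in Wagyu x Angus there, and 4 of 6 endothelial markers were called lower (4.25% of probes).

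Other genes of the pathway, 39 with a probe from a fixed list of 44 beside the 8 enzymes, were more often lower than higher in IMF. There 23 of the 39 were called lower than in SC and 6 higher, against 32.1% and 30.8% of all probes, and the median difference was -0.94. In Omen 18 were lower and 5 higher than in SC (22.9% and 18.9% of probes), in Inter 12 and 5 (24.7% and 19.8%), and in Kid 11 and 6 (22.8% and 20.2%). Over the depots 35 of 39 passed, close to the 87.2% of all probes.

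In IMF 8 of the 10 genes of NADPH supply were lower than in SC, among them TALDO1 (-1.97, adjusted p = 6.15e-15) and TKT (-1.86), the transaldolase and transketolase of the pentose phosphate pathway, and IDH1 (-1.93). IDH2, the mitochondrial isocitrate dehydrogenase, was higher by 2.86 (adjusted p = 3.16e-18). IDH2 had medians of 3.50 in IMF, 0.60 in SC and 5.15 in pasture LD. Of the 5 acetyl-CoA genes, PC, pyruvate carboxylase (-2.25), SLC25A1, the mitochondrial citrate carrier (-1.42), and ACSS3 (-1.52) were lower in IMF, and CS, citrate synthase, was higher (0.84).

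Among the genes around malonyl-CoA, ACACB was higher in IMF. It was well above background on none of the 12 SC arrays and on all 12 IMF arrays, which makes it at least 28.3-fold higher in IMF (adjusted p = 7.58e-18), and at least 89.7-fold higher in pasture LD than in SC. THRSP, a regulator of fat synthesis also called Spot 14, was lower in IMF by 1.83 (adjusted p = 6.3e-06). MLYCD, which removes malonyl-CoA, was higher by 0.97. Muscle markers were high in IMF, as given above, and their part in the gains of ACACB, IDH2, CS and MLYCD was not tested.

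Of the 10 elongation and desaturation genes, HSD17B12 (-2.08), ELOVL5 (-1.62), HACD2 (-1.21) and ELOVL1 (-0.62) were lower in IMF and SCD5, another desaturase, was higher (1.46). FADS2, the delta-6 desaturase, was higher than SC in every depot. Kid was 1.05 above SC, Inter 1.22, Omen 1.41 and IMF 2.25. The regulators did not move as one. SCAP (-1.40), MLXIPL, which encodes the carbohydrate response factor ChREBP (-1.33), NR1H3, which encodes the liver X receptor alpha (-0.94), and USF1 (-0.80) were lower in IMF than in SC. SREBF1, which encodes the sterol regulatory factor SREBP-1, had medians in fat from -0.19 in IMF to 0.09 in Kid. It was called in no comparison of another fat depot with SC (adjusted p from 0.577 to 0.755). INSIG1, which holds SREBP in the endoplasmic reticulum, was higher than SC in Inter (1.14), Kid (1.13) and Omen (1.03) with adjusted p of at most 2.31e-05. Between breeds in fat, Wagyu x Angus was higher than Hereford for 5 of the 39 (1.51% of probes), among them ELOVL5 (0.88, adjusted p = 0.00585) and IDH1 (0.71, adjusted p = 0.0243), and lower for ACSL1, a long-chain acyl-CoA synthetase (-0.63). With the supplement in LD, 3 of the 39 were called lower and 3 higher, near the 5.6% and 5.65% of all probes. THRSP had the widest shift (-2.88, SE 0.61, adjusted p = 0.00264), from a pasture median of -1.64 to -5.35, and was above background on 19 of 24 pasture and 9 of 12 supplement arrays. FADS2 was higher by 0.65 (adjusted p = 0.000455). At least 5 of these 6 calls were lost with slide as a random block, where 1 probe of all was called.

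**Figure D5:**
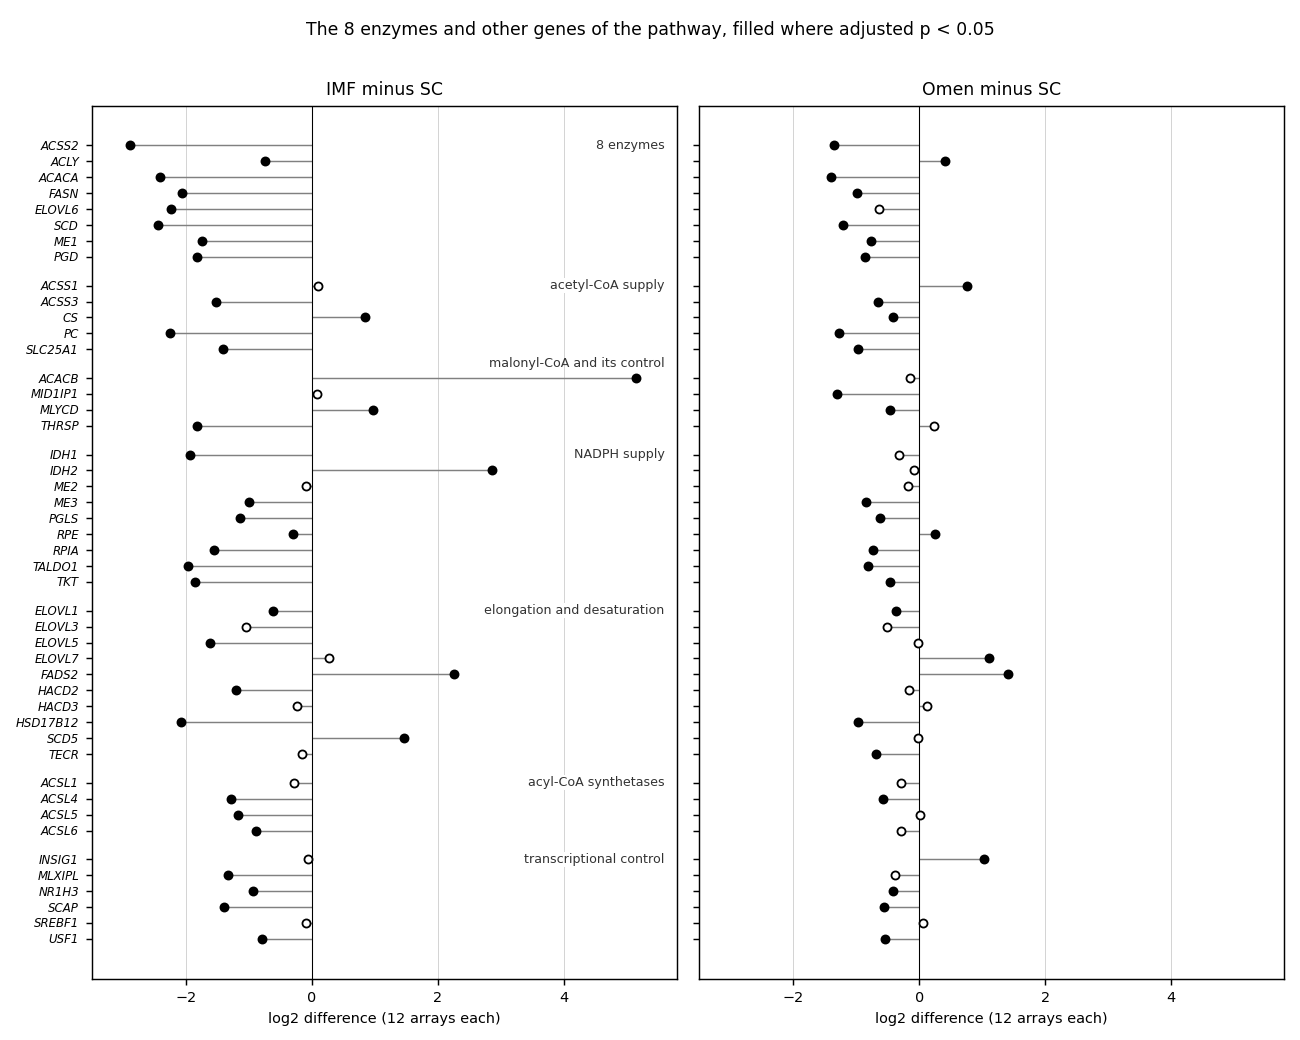
Difference of IMF (left) and Omen (right) from SC for the 8 enzymes and other genes of the pathway, grouped by role (x axis, log2 difference; 12 arrays per depot), filled where the adjusted p is under 0.05. In IMF most of the other genes lie filled below 0, among them PC at -2.25, and ACACB, drawn at its fitted difference although SC was not above background, and IDH2 lie farthest above it.

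Other named genes, 9722 in all, were compared over the 60 fat arrays with the mean of the 8 enzymes, each centred on its own mean. Those most like it were QPRT (r = 0.97), PCK2 (0.96), LDHB (0.96), SLC4A4 (0.95), TALDO1 (0.94) and NIPSNAP1 (0.94). QPRT makes a precursor of NAD, PCK2 is the mitochondrial phosphoenolpyruvate carboxykinase, LDHB a lactate dehydrogenase subunit and SLC4A4 a bicarbonate transporter. Once the depot means were subtracted, QPRT (0.94), LDHB (0.94), SLC4A4 (0.93), PCK2 (0.93), CYB5A (0.93), the cytochrome that passes electrons to SCD, and ELOVL5 (0.92) led. The first 4 genes were in both lists. The points share slides, steers and the scaling of each array.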

How the data were processed

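Each of the 96 RNA samples was read on its own one-colour Agilent bovine array. The authors deposited intensity values per spot from the scanner software, among them a background-subtracted processed signal with no scaling between arrays, and a table of log2 values per probe, which equals the mean log2 of median spot signal minus local background within 0.0001 for all 3285792 values and served as an alternative. The normexp alternative used the deposited median intensity values. The mixed-model normalisation of the study's methods was not repeated, since the methods give it by citation.

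The processed signal was put on the log2 scale and the 75th percentile of each array over non-control probes was subtracted. Spots flagged as outliers were left out and spots of a probe averaged. Tests covered the 34227 probes of the deposited table. Probes were named through bovine RefSeq accessions (19903) or the probe tables of the paper (4446), 21445 or 62.7% in all, and 2753 of the 2904 named by both agreed. FASN rests on the paper's tables. The number of arrays, and the steers and slides they share, limit the precision.

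Fits used R 4.3.3, version 1.17.8 of data.table and limma 3.58.1 (lmFit followed by eBayes), with breed as covariate for depot and diet, depot or diet as covariate for breed, and Benjamini-Hochberg adjustment over all probes at a threshold of 0.05. The scripts were checked on simulated data. The 8 enzymes are all named, each by its brightest probe; other genes come from fixed lists by role, of which 1 gene is counted but not reported here, and the most similar genes are the 6 highest by correlation. The members and lists were chosen with earlier results of these data known. The label's replicate number is the position on the slide, and scan days come from the file headers. Alternatives were quantile normalisation, mean centring, normexp with an offset of 50, the deposited log2 values, all probes, a filter on dim probes, the paper's probe, slide, scan day and replicate number as blocks, no breed term, the methods' t-test, subsets of arrays, and each array left out. Added after seeing the data were fits within a scan day, without IMF, and without single LD slides. Nothing in the labels marks an LD sample's kill or the steer of a sample.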

Additional observations from a re-analysis of the deposited data

Results flagged for a closer look

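Of 168 sets of an enzyme in a group of 4 or 8 arrays, 6 had an array far from the others, and 8.4 would be expected by chance. On the Wagyu x Angus Inter array on slide 5, position 2, whose muscle markers were high, ELOVL6 was at 2.40 (the other 3 at 4.01 to 4.09) and ME1 at 1.87 (others 3.21 to 3.46). On the Hereford pasture LD array on slide 24, position 1, FASN was at 2.86 (others 1.53 to 2.08) and ELOVL6 at -3.05 (others -4.40 to -3.81). ACLY was at 0.24 on the Angus supplement LD array on slide 1, position 3 (others -0.11 to -0.08), and PGD at 5.17 on the Wagyu x Angus Omen array on slide 11, position 4 (others 4.31 to 4.43).

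The diet difference in LD depended on breed for ELOVL6 (adjusted p = 0.0277), SCD (adjusted p = 0.0179) and PGD (adjusted p = 0.0116) in limma. Each breed and diet lies on slides that hold no other diet, so slide and diet cannot be told apart.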

How the results depend on the processing

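Of the 8 enzymes, 8 passed between depots, 53 of 80 pairwise depot tests, 40 of 40 tests against LD, 1 between breeds and 0 for depot by breed in fat, and 3 each for diet, breed and diet by breed in LD. The depot counts stayed within 1.5 times of these under the settings run on all fat arrays; 44 (quantile) and 42 (scan day block) of the 80 were the lowest. The exception was Kid minus Inter on scan day 2 alone, 0 of 8. Depot by breed stayed at 0. Counts for breed in fat became 2 with the paper's probe and 0 in each of SC, IMF, Inter, Kid and Omen alone. For breed in LD they became 5 with normexp, 5 on the 24 pasture arrays alone, and 0 with slide as a random block or with scan day as a block. For diet they became 0 with slide as a random block, 1 by the methods' t-test, 5, 0 and 1 in Angus, Hereford and Wagyu x Angus alone, and 1 and 5 on scan days 1 and 2 alone. For diet by breed they became 0 with slide as a random block and 5 with scan day as a block. The subsets hold fewer arrays, and the cause of these changes was not tested in any setting.

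Differences by diet that reversed were, in Hereford alone, PGD 0.105, ME1 0.0929, ELOVL6 0.24 and ACACA 0.26, and on scan day 1 alone PGD 0.0773, ME1 0.26, ELOVL6 0.28, ACSS2 0.0927, FASN 0.0119 and ACLY 0.0527. Of 1591 values recomputed for single enzymes, leave-one-out fits aside, 1485 kept direction and side of the threshold. A call was lost in 88 and gained in 8, and the other 10 were the reversals above. Leaving out 1 array gave 8 to 8 enzymes for depot, 50 to 54 pairwise calls, 39 to 40 against LD, 0 to 2 for breed in fat, 0 to 0 for depot by breed, and 2 to 4 each for diet, breed and diet by breed in LD. Breed in fat reached 0 without, for example, the Wagyu x Angus Inter array on slide 3, position 2. Leaving out 1 of LD slides 2, 20, 23 and 24 gave 1 (slide 2) to 4 (slide 24) for diet, 0 (slide 2) to 4 (slide 20) for breed and 1 (slide 24) to 5 (slide 20) for diet by breed.

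With the replicate block, counts were 8, 53, 40, 1, 0, 3, 3 and 3 in the order above, and no call of an enzyme changed. Arrays with the same number did not deviate together (mean r 0.006 in fat and 0.018 in LD), so the numbers give no pairing.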
